A study of Mus musculus with 9 samples.

Results

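Ultraconserved regions are stretches of the genome that are identical in human, mouse and rat over long runs of bases, and they are numbered with the prefix uc. Part of them is transcribed, from one strand or from both, and the resulting RNAs are called transcribed ultraconserved regions. Many of these regions lie in or near genes for transcription factors and for RNA-binding and splicing proteins, where an alternative exon holding such a region can route the messenger RNA to decay. Their RNAs were first described for tissue-specific levels and for altered levels in cancer, and single ones have been studied in heart cells.

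The array carried a probe for each strand of 481 ultraconserved regions. All 962 probes whose systematic name begins with uc. and that are not control spots were taken, out of 59709 non-control probes. The names end in + or -, which gives 481 probes per strand, and each probe has 1 spot. The names alone chose the probes, and no measured value entered that rule, although earlier results of these data were known. Genomic positions, host genes and probe sequences of these regions were not analysed here, so the regions are given by number, and whether the labelling kept the strands apart was not tested.

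RNA of mouse cardiac tissue was measured on 9 arrays in 3 groups of 3. The WT group is labelled as wild-type mice of the strain B6SV129F1, with no operation named. The TAC group has that same wild-type strain label together with surgery, where TAC usually means transverse aortic constriction, a pressure load on the left ventricle. The CnA group carries the strain label Myh6-CnA, which in heart research denotes a transgene for calcineurin A, a phosphatase of hypertrophic signalling, under the Myh6 promoter, which is active in heart muscle cells. Age, sex, time after surgery and the number of animals behind an array are not stated in the labels, so p-values measure the spread between arrays, and surgery cannot be told apart from pressure load. Of 33 marker genes for heart muscle and other cell types, 0 could be paired with a probe by name or accession, so the tissue label was not checked. Fewer cells of a type and less RNA per cell cannot be told apart in such bulk samples.

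Values are log2 of the processed signal minus the 75th percentile of the same array, called scaled log2 signal below. That percentile was brighter in WT (441.9 ± 13.6 intensity units, SD, n = 3) than in TAC (269.1 ± 9.1) and CnA (289.7 ± 9.2). A probe of equal unscaled signal on all arrays therefore comes out higher in TAC and CnA than in WT on this scale. Of the 9 arrays, 8 shared a slide, with the WT arrays and TAC replicate 1 in the first row and the other TAC arrays with CnA replicates 1 and 2 in the second. CnA replicate 3 was on another slide. The row on the slide therefore partly follows the groups. In a fit with the row as a block, TAC against WT rests on TAC replicate 1 against the WT arrays. CnA against TAC rests on CnA replicates 1 and 2 against TAC replicates 2 and 3. CnA against WT is the sum of those differences, and CnA replicate 3 does not enter. An effect of the row and the loss of arrays cannot be told apart in that fit.

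About 1 ultraconserved probe in 2 gave signal. Single arrays detected, meaning well above background, between 447 (TAC replicate 2) and 538 (TAC replicate 1) of the 962. WT arrays detected 52.5% ± 2.8 of them (SD, n = 3), TAC arrays 50.7% ± 4.8 and CnA arrays 51.5% ± 1.7, against 74.7% ± 2.3, 71.1% ± 3.9 and 74.6% ± 2.5 of all probes. The differences between groups for the ultraconserved probes were smaller than the spread between arrays. On all 9 arrays 383 probes were detected, on 1 to 8 arrays 289, and on no array 290.

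**Figure D1:**
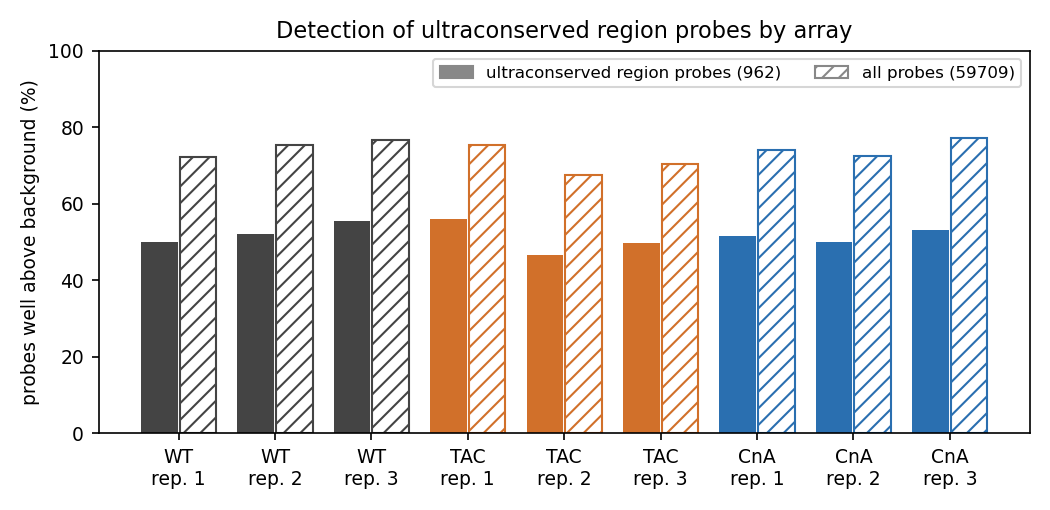
Share of probes well above background (y axis, percent) on each of the 9 arrays (x axis), as filled bars for the 962 ultraconserved region probes and hatched bars for all 59709 probes, coloured by group. On every array the filled bar is lower, from 46.5% to 55.9% against 67.6% to 77.3%.

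Testing required detection on every array of some group. This held for 483 of the 962 probes, 229 of the + strand and 254 of the - strand. The other 479 were not tested. Both strands were tested for 124 regions, the + strand alone for 105, the - strand alone for 130, and neither for 122. Tested probes are not all ultraconserved probes, and one that entered through a single bright group was bound to differ more readily. Most detected ultraconserved probes were dim. Between 129 and 180 of the 962 were brighter on an array than the brightest of 20 negative control probes.

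In TAC against WT, ultraconserved probes rose more often than they fell. Of the 483 tested, 203 were higher in TAC and 60 lower (limma, adjusted p under 0.05), which is 42% and 12.4%, against 39.6% and 20.5% of all 44224 tested probes. In total 263 were called, or 54.5%, against 60.1% of all tested probes. The median log2 fold change was 0.42 over the tested ultraconserved probes and 0.32 over all probes. Measured from that general shift, 200 of the called probes lay above it and 63 below, or 41.4% and 13%, against 38.8% and 21.3% of all tested probes. Of the calls, 180 rises and 42 falls were of probes detected on all 6 arrays, with median log2 fold changes of 0.69 and -0.82. The fitted size of the other calls rests on values near background. How many rises were of probes whose unscaled signal did not change was not counted. Unscaled, the negative control MM9NEGATIVE018 was at 5.68 to 5.88 in WT and 5.79 to 5.92 in TAC. The brightest, MM9NEGATIVE020, was lower in TAC, at 7.51 to 7.9 in WT and 7.01 to 7.15 in TAC. At a fitted 2-fold or more there were 36 falls (7.45%, against 13.2% of all tested probes) and 45 rises (9.32%, against 14%), of which 18 falls and 32 rises were of probes detected on all 6 arrays. Normexp background correction gave 322 higher and 53 lower. It moved the share of rises among calls from 77.2% to 85.9%, and over all probes from 65.8% to 75.1%. The values of TAC and WT did not overlap for 320 of the 483, or 66.3%, against 69.1% of all tested probes. Only TAC replicate 1 shared a slide row with WT, so a fit with the row as a block compares that array alone with WT. Within that row the log2 difference from the WT mean was -6.9 for uc.203+ and 1.56 for uc.436-, described next. With the row as a block, 157 calls were made, 109 of them higher.

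The largest fall among probes detected on every WT and TAC array was that of uc.203+. Its scaled log2 signal was 4.07, 4.74 and 4.56 in WT, -2.44, -2.42 and -2.32 in TAC, and -1.12, -1.30 and -1.20 in CnA. All WT arrays lay far above all others, and the 3 groups did not overlap. The log2 fold change in TAC was -6.85 (SE 0.17, limma adjusted p = 1.5e-07), a 115-fold lower signal, or -7.17 relative to the shift. Its TAC values, though well above background, lay below the brightest negative control probe on each TAC array. The other strand, uc.203-, was at -2.93, -1.93 and -2.48 in WT and -3.37, -3.27 and -2.91 in TAC, a log2 fold change of -0.73 (SE 0.24, limma adjusted p = 0.03). That smaller fall was -0.04 under normexp background correction, and it lost its call without WT replicate 2 or 3 or TAC replicate 1 or 2 (limma adjusted p = 0.077, 0.058, 0.095 and 0.081).

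The probe uc.420- followed, with 4.82, 5.29 and 4.88 in WT against 0.36, 0.37 and 0.35 in TAC. The log2 fold change was -4.64 (SE 0.14, limma adjusted p = 2.4e-07), and the TAC arrays agreed to within a few hundredths of a log2 unit. The probe uc.471+ was at 1.66, 2.49 and 2.55 in WT and at -1.20, -1.16 and -1.13 in TAC (-3.4, SE 0.22, limma adjusted p = 6.1e-06). In both the WT values lay well clear of TAC, while WT replicate 1 was the lowest WT array for uc.471+.

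Of the other probes that led the falls, uc.419- changed by -3.32, uc.193- by -3.29, uc.481+ by -3.06, uc.285+ by -1.93 and uc.455- by -1.9 on the log2 scale. WT replicate 1 was the lowest WT array for uc.419-, uc.193- and uc.481+ too, at 0.2, -0.42 and 0.65, beside 1.41 and 0.8, 0.42 and 0.3, and 1.84 and 2.07 on the others. The 8 leading falls comprised 4 probes of each strand, and all 8 stayed called without any single array and with the row on the slide as a block.

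Rises were smaller and reached 1.71 log2 units among called probes detected on every WT and TAC array without overlap. That value belonged to uc.21-, at -1.24, -1.60 and -1.17 in WT and 0.12, 0.39 and 0.62 in TAC (SE 0.35, limma adjusted p = 0.0034). No array of the 2 groups overlapped. The probe uc.436- was at 0.38, 0.28 and -0.03 in WT and 1.77, 1.85 and 1.87 in TAC, a log2 fold change of 1.62 (SE 0.13, limma adjusted p = 2e-05). The probe uc.62+ was at -3.30, -3.58 and -3.47 in WT and -1.83, -1.90 and -2.02 in TAC (1.53, SE 0.11, limma adjusted p = 1.1e-05). The rise of uc.436- is set apart by its CnA values, given further on.

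The next rises were 1.53 for uc.42+, 1.52 for uc.200-, 1.48 for uc.263-, 1.47 for uc.58+ and 1.34 for uc.409+. A few of them leaned on single arrays. In uc.42+ WT replicate 3 was at -4.24 beside -2.21 and -2.26, and in uc.263- TAC replicate 3 was at 1.55 beside -0.24 and -0.36. Without WT replicate 3 the rise of uc.42+ was 0.86 (limma adjusted p = 0.002), and without TAC replicate 3 that of uc.263- was 0.86 (limma adjusted p = 0.0019). Their calls were lost, with the fold nearly kept, without TAC replicate 1 or 3 for uc.42+ (1.5 and 1.47, limma adjusted p = 0.063 and 0.065) and without WT replicate 2 or 3 for uc.263- (1.45 and 1.41, limma adjusted p = 0.053 and 0.051). With the row as a block uc.42+, uc.263- and uc.58+ stood at 1.6, 0.92 and 1.24 and were not called (limma adjusted p = 0.14, 0.28 and 0.14).

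**Figure D2:**
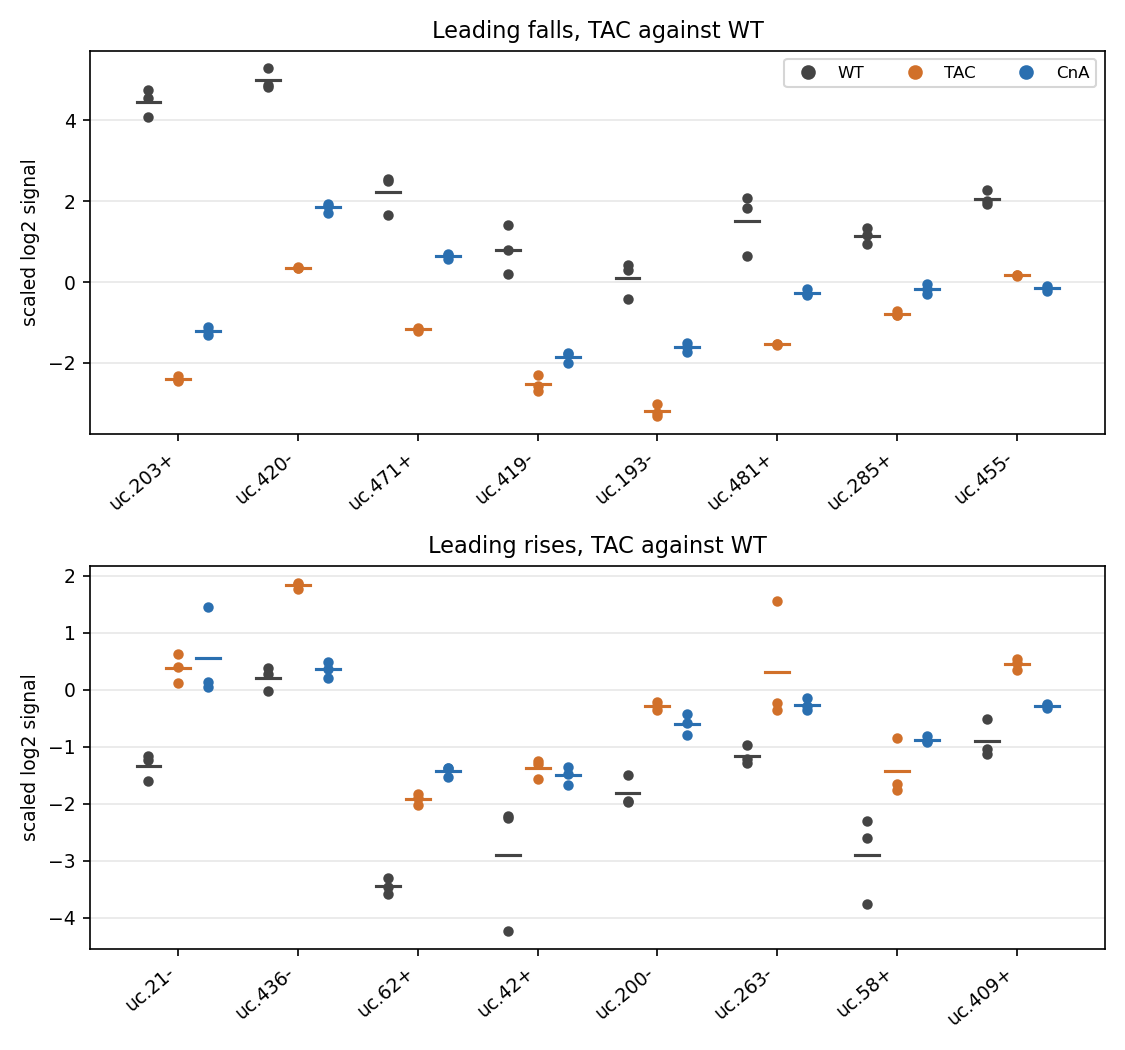
Scaled log2 signal (y axis) of the 8 leading falls (top) and 8 leading rises (bottom) in TAC against WT, with a point per array and a line at each group mean, coloured by group. For uc.203+ the WT arrays lie from 4.07 to 4.74 and the TAC arrays from -2.44 to -2.32, while the largest rise, uc.21-, spans -1.60 to 0.62 over these groups.

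In CnA against WT, 159 of the 483 tested ultraconserved probes were higher and 73 lower (limma, adjusted p under 0.05). These are 32.9% and 15.1%, against 36.2% and 20.5% of all tested probes. The 232 calls made up 48% of the tested ultraconserved probes, against 56.8% over the array. The median log2 fold change was 0.25, beside 0.22 over all probes. Of the calls, 137 rises and 61 falls were of probes detected on all 6 arrays, with medians of 0.68 and -0.97. Here too a probe of equal unscaled signal in both groups comes out higher on this scale. At a fitted 2-fold or more CnA showed 43 rises (8.9%, against 13.9%) and 39 falls (8.07%, against 11.4%), of which 27 rises and 29 falls were of probes detected on all 6 arrays. The values of CnA and WT did not overlap for 277 probes, or 57.3%, against 62.4%. Normexp background correction gave 247 higher and 61 lower, which moved the share of rises among calls from 68.5% to 80.2%, and over all probes from 63.8% to 72%. No CnA array shared a slide row with WT, so no value within a row could be had, and with the row as a block 58 calls were made, 23 higher and 35 lower.

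The leading falls in CnA were again led by uc.203+, whose log2 fold change was -5.67 (SE 0.17, limma adjusted p = 3.3e-07). The comparisons of TAC and of CnA share the WT arrays, so their values are set side by side here and were not taken as separate evidence. The probe uc.366- was at 0.56, 1.23 and 1.21 in WT and -2.29, -2.44 and -2.36 in CnA (-3.36, SE 0.32, limma adjusted p = 5.7e-05). The probe uc.420- stood at 1.89, 1.72 and 1.93 in CnA, which is -3.15 log2 units from WT (SE 0.14, limma adjusted p = 1.5e-06). In each of these the CnA arrays were close together and below every WT array.

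The remaining leading falls in CnA were -2.82 for uc.185-, -2.74 for uc.418-, -2.65 for uc.419-, -2.36 for uc.183- and -2.22 for uc.455-. Of these 8 falls 7 were on the - strand, with uc.203+ as the exception. All 8 were also called with the row on the slide as a block. Over the whole set of tested probes the strands were nearer to each other, with 33 of 229 + probes and 40 of 254 - probes lower in CnA.

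Rises in CnA reached 2.04 log2 units among called probes that every WT and CnA array detected, without overlap. This was uc.256+, at -1.61, -1.61 and -1.52 in WT and 0.25, 0.33 and 0.78 in CnA (SE 0.16, limma adjusted p = 2.1e-05). The groups did not overlap, and TAC lay between them at -0.25, -0.16 and -0.50. The probe uc.62+ rose by 2.02 (SE 0.11, limma adjusted p = 3.8e-06), to -1.53, -1.38 and -1.38. Further rises were 2.02 for uc.58+, 1.92 for uc.243+, 1.88 for uc.21-, 1.61 for uc.88-, 1.41 for uc.57+ and 1.4 for uc.36-. For uc.21- CnA replicate 3, the array on the second slide, was at 1.45 beside 0.05 and 0.14. With the row as a block uc.58+, uc.243+, uc.21-, uc.88- and uc.57+ were not called, at 1.68, 1.89, 1.05, 1.36 and 1.23 (limma adjusted p = 0.18, 0.17, 0.05, 0.2 and 0.16), while uc.256+, uc.62+ and uc.36- were.

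Set directly against each other, the models differed in fewer ultraconserved probes. In CnA against TAC, 20 of the 483 were higher in CnA and 26 lower (limma, adjusted p under 0.05), which is 4.14% and 5.38%, against 10.5% and 6.89% of all tested probes. The 46 calls were 9.52%, against 17.4% over the array. The median log2 fold change was -0.12, beside -0.04 for all probes. The values of CnA and TAC did not overlap for 170 probes, or 35.2%, against 46.1%. Within the slide row shared by CnA replicates 1 and 2 and TAC replicates 2 and 3, the log2 difference was 1.78 for uc.471+ and -1.57 for uc.436-, both described next. The number of calls rested on single arrays. Leaving out WT replicate 1 gave 71, leaving out TAC replicate 1, 2 or 3 gave 23, 20 and 24, and leaving out CnA replicate 1 or 2 gave 25 and 28. With the row as a block it was 14, and with the replicate number as a block 27.

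Of the 20 probes higher in CnA than in TAC, 14 had a CnA mean between those of TAC and WT, a position that choosing probes low in TAC favours. Of the calls, 15 rises and 23 falls were of probes detected on all 6 arrays. At a fitted 2-fold or more there were 10 rises (2.07%, against 4.69% of all tested probes), all called lower than WT in both models. By that much 2 were lower (0.414%, against 1.59%). Among the 10, uc.366-, uc.391+ and uc.185- were detected on no TAC array, with CnA at least 2.46-, 1.71- and 1.49-fold higher. Another, uc.12-, was detected on no TAC or CnA array, so its difference lies within background. The probe uc.471+ was at -1.20, -1.16 and -1.13 in TAC and 0.70, 0.56 and 0.66 in CnA, a log2 difference of 1.8 (SE 0.22, limma adjusted p = 0.001). The difference was 1.57 for uc.193-, 1.48 for uc.420- and 1.18 for uc.203+, whose adjusted p values were 0.0018, 0.00027 and 0.0022 (limma). The probe uc.481+, with a difference of 1.27 (limma adjusted p = 0.028), was not called when any TAC or CnA array was left out, although the difference stayed between 1.22 and 1.3. Nor was it called under normexp background correction (0.84, limma adjusted p = 0.08) or with the row as a block (1.22, limma adjusted p = 0.17).

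Smaller differences were 0.76 for uc.256+, which lost its call without TAC replicate 3 (limma adjusted p = 0.054), 0.72 for uc.324- and 0.7 for uc.34+. With the row as a block uc.256+ and uc.324- were not called (0.62 and 0.63, limma adjusted p = 0.069 and 0.065). The probe uc.34+ was at 1.64, 1.58 and 1.65 in WT, 0.90, 0.95 and 1.01 in TAC and 1.77, 1.64 and 1.55 in CnA. It was called lower in TAC than in WT (-0.67, SE 0.09, limma adjusted p = 0.00043), while CnA and WT differed by 0.03 (SE 0.09, limma adjusted p = 0.82) and their arrays overlapped.

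Among probes lower in CnA than in TAC, the largest difference was that of uc.436-. It stood at 0.36, 0.21 and 0.49 in CnA, overlapping WT, and at 1.77, 1.85 and 1.87 in TAC, a log2 difference of -1.48 (SE 0.13, limma adjusted p = 0.00023). Against WT the CnA arrays differed by 0.14 (SE 0.13, limma adjusted p = 0.38). The probe uc.403+ was at -0.49, -0.33 and -0.44 in TAC and -1.27, -1.54 and -1.95 in CnA (-1.17, SE 0.21, limma adjusted p = 0.0065), not called with the row as a block (-1.02, limma adjusted p = 0.054). In both of these probes TAC stood above WT and CnA overlapped WT.

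Another set was lower in CnA than in both other groups. The probe uc.417+ was at 5.05, 4.65 and 4.88 in WT, 4.62, 4.62 and 4.50 in TAC and 3.61, 3.62 and 3.86 in CnA. The CnA arrays lay below all others, with a log2 difference of -0.88 from TAC (SE 0.13, limma adjusted p = 0.0028), while TAC and WT differed by -0.28 (limma adjusted p = 0.093). The probe uc.84- was at 7.31, 7.24 and 6.95 in WT, 7.46, 7.11 and 6.85 in TAC and 6.29, 6.40 and 6.39 in CnA, -0.78 from TAC (SE 0.17, limma adjusted p = 0.015). It was not called without TAC replicate 2 or CnA replicate 1 (-0.79 and -0.74, limma adjusted p = 0.051 and 0.058) or with the row as a block (-0.63, limma adjusted p = 0.094). Of the 26 probes lower in CnA, 15 had a CnA mean below both other means and 11 had one between WT and TAC.

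The other leading ones were -0.84 for uc.456+, -0.75 for uc.230+, -0.73 for uc.409+ and -0.66 for uc.460-. Both uc.456+ and uc.460- were also called lower in TAC than in WT, with log2 fold changes of -1.32 and -0.82, and lower still in CnA. Their order was WT, TAC, CnA without overlap. The probes uc.230+ and uc.409+ lost their call without 1 of several single arrays, among them TAC replicate 2 and CnA replicate 1 for both. With the row as a block uc.456+, uc.230+ and uc.409+ were not called (-0.86, -0.66 and -0.81, limma adjusted p = 0.085, 0.13 and 0.093). The number of ultraconserved probes called higher than WT in one model and lower in the other was 0. Both comparisons share the WT arrays, which favours the same direction, and such probes were not counted over the whole array.

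**Figure D3:**
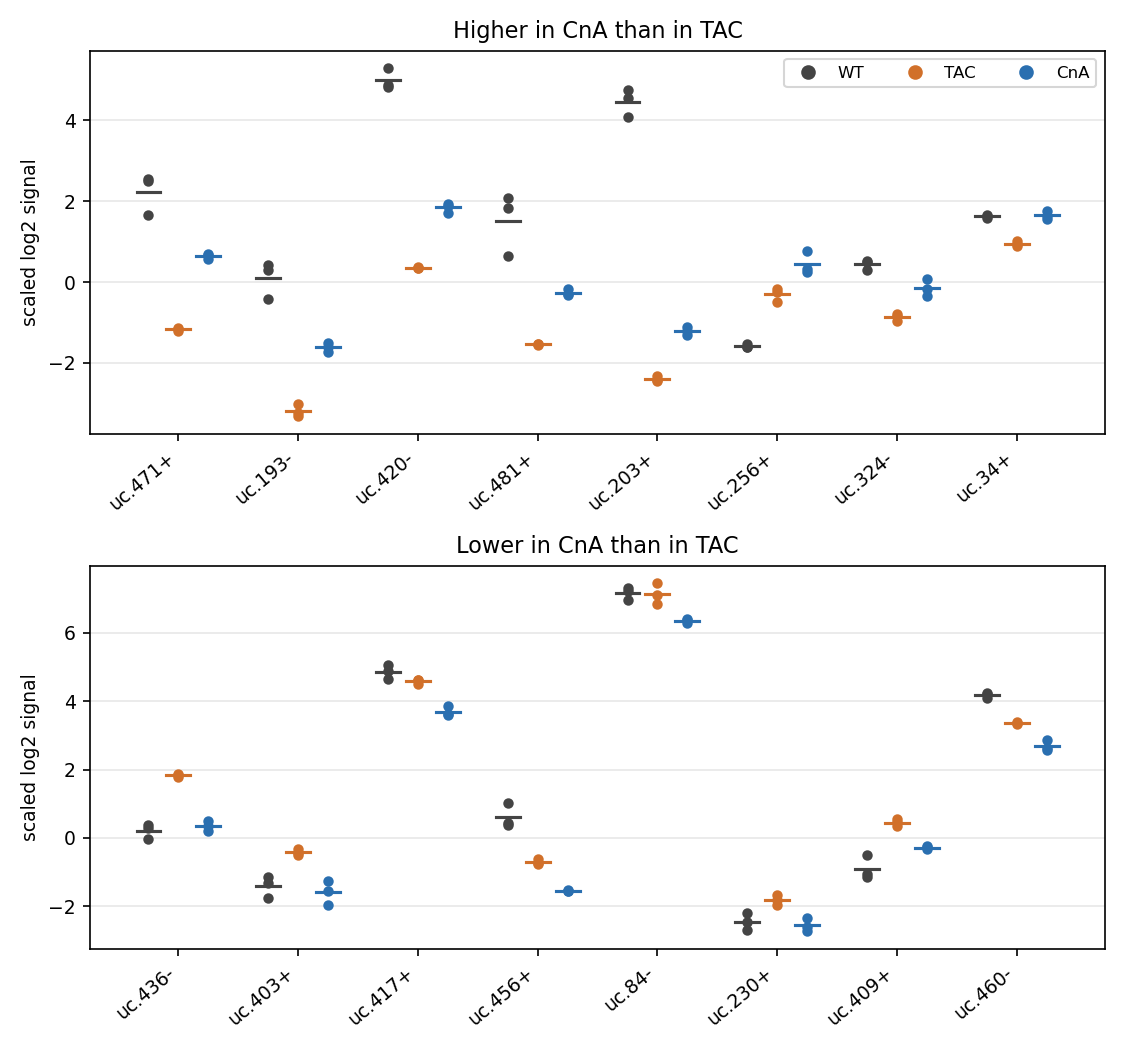
Scaled log2 signal (y axis) of the 8 probes that led among those higher (top) and lower (bottom) in CnA than in TAC, with a point per array and a line at each group mean, coloured by group. In the top panel CnA lies between TAC and WT for uc.471+, from 0.56 to 0.70, and in the bottom panel the CnA arrays of uc.417+, from 3.61 to 3.86, lie below both other groups.

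Some ultraconserved probes were detected in one group and not in another, and for these only a lower bound of the difference can be given. The bright group's mean was divided by the dim group's mean of the higher of the probe's own signal and the lowest signal that passed as well above background on each array. On all WT arrays and no TAC array there were 14 ultraconserved probes, on all WT and no CnA arrays 10, on all CnA and no WT arrays 7, on all CnA and no TAC arrays 5, and on all TAC and no CnA arrays 1. Over the whole array the same sets held 1273, 604, 530, 698 and 71 probes. On the scaled log2 axis the lowest signal that passed averaged -4.17 in WT, -3.89 in CnA and -3.66 in TAC. A level that passed in WT could therefore fail in TAC or CnA.

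The largest bound was that of uc.366-. In TAC it was at -4.71, -5.72 and -5.94 and well above background on no array, and WT was at least 25.3-fold higher. The probe uc.185- was at -0.49, -0.46 and 0.14 in WT and at -6.28, -5.72 and -5.94 in TAC, and WT was at least 10.5-fold higher. In CnA it was detected on all arrays, at -2.84, -3.18 and -3.23. For uc.184+ WT was at least 7.11-fold higher than TAC, although WT replicate 1 was at -2.26 beside -0.07 and -0.16. The fit, in which the TAC values of these probes lie at background, gave adjusted p values of 1.6e-06, 5.4e-07 and 0.00039 (limma). The 3 probes were also called lower in CnA than in WT.

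One listed region has been described in cardiac hypertrophy, where its RNA was reported to bear on a gene of fatty acid uptake by mitochondria. Its - strand probe was detected in WT alone, at -1.65, -1.67 and -1.78 in WT, against -4.73, -4.34 and -4.31 in TAC and -4.46, -4.93 and -4.46 in CnA. It was well above background on all WT arrays and on no other, and the WT values lay far above the rest with little spread. Those WT values still lay below the brightest negative control probe on each WT array. WT was at least 3.89-fold higher than TAC (limma adjusted p = 4.5e-06) and at least 4.56-fold higher than CnA (limma adjusted p = 4.8e-06). The + strand probe moved the other way in TAC. It was detected on all 9 arrays, at -1.94, -2.05 and -1.86 in WT, -1.47, -1.51 and -1.44 in TAC and -1.46, -1.79 and -1.85 in CnA. On each of them it lay below the brightest negative control probe. It rose by 0.48 in TAC (SE 0.12, limma adjusted p = 0.0099), or 0.16 relative to the general shift, and with the row as a block this was not called (limma adjusted p = 0.076). Its difference of 0.25 in CnA was not called (SE 0.12, limma adjusted p = 0.11), but was under normexp background correction (0.3, limma adjusted p = 0.0087). The median over all tested probes was 0.26 under that correction. Which strand the earlier work measured was not analysed here.

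Only 5 ultraconserved probes were detected on all WT arrays and no other array: uc.12-, uc.61-, uc.235-, uc.265+ and the - strand probe of that hypertrophy region. For CnA there was 1, uc.44+, and for TAC there were 0. Such sets were not counted over the whole array, and the lower limit of detection in WT favours probes detected in WT alone. The probe uc.44+ was at -3.35, -3.22 and -3.44 in CnA, with a bound of at least 1.78-fold over WT (limma adjusted p = 0.0085) and 1.25-fold over TAC (limma adjusted p = 0.19). The highest bound of CnA over WT was 2.04-fold, for uc.51+. Bounds in that direction were thus low beside those of WT over TAC.

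**Figure D4:**
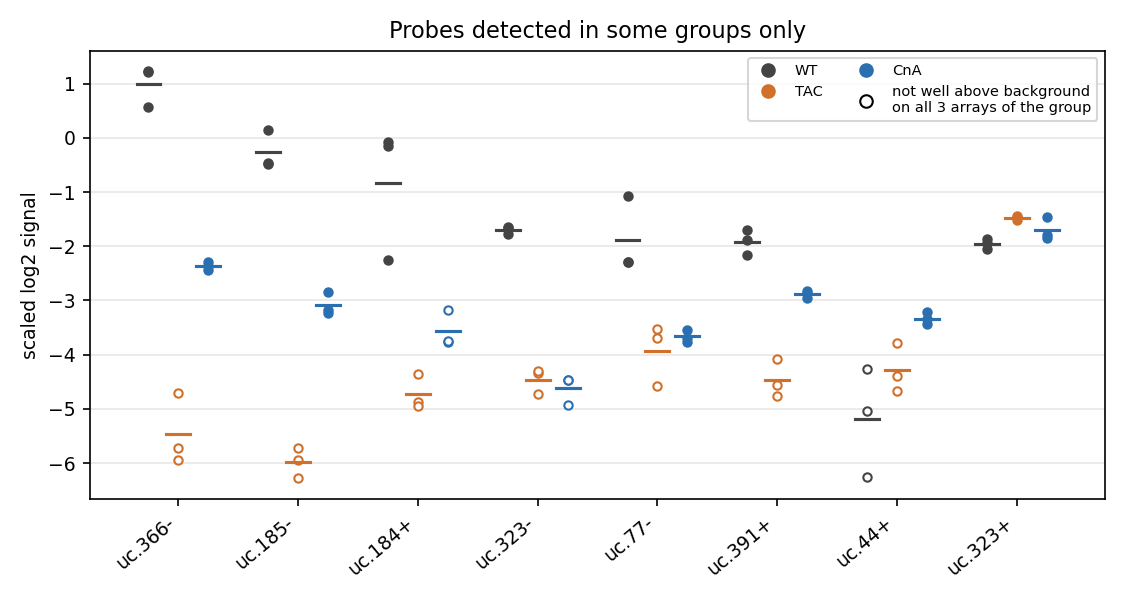
Scaled log2 signal (y axis) of probes detected in some groups only, with the + strand probe of the hypertrophy region for comparison, as a point per array and a line at each group mean. Open points mark groups in which the probe was not well above background on all 3 arrays. For uc.366- the WT arrays lie from 0.56 to 1.23 and the TAC arrays from -5.94 to -4.71. The - strand probe of the hypertrophy region lies from -1.78 to -1.65 in WT and from -4.93 to -4.31 elsewhere.

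The strands of a region were then set side by side by their fold changes, since levels of different probes cannot be compared. In TAC against WT, both strands were called in 42 of the 124 regions with both tested, 1 strand in 54 and neither in 28. Of the 42, 23 had both strands higher, 10 both lower and 9 opposite calls. In CnA against WT both were called in 28 regions, of which 10 had both higher, 10 both lower and 8 opposite calls. Of all 229 tested + probes 90 were higher and 28 lower in TAC, and 73 and 33 in CnA. Of the 254 - probes 113 were higher and 32 lower in TAC, and 86 and 40 in CnA. How many opposite calls such shares give when strands are unrelated was not computed, so the counts show no excess of opposite pairs. In CnA against TAC both strands were called in uc.45 alone, higher in CnA by 0.51 for the + strand and 0.52 for the - strand. Across the 124 regions, which are not independent replicates and share arrays and scaling, the fold changes of the strands correlated with a Pearson r of 0.37 in TAC and 0.26 in CnA (Spearman rho 0.23 and 0.15).

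The regions with both strands lower in TAC were uc.45, uc.75, uc.77, uc.203, uc.418, uc.419, uc.420, uc.471, uc.472 and uc.481, with sizes given here where measured. In uc.420 the - strand changed by -4.64, while the + probe was well above background on no TAC array and WT was at least 3.25-fold higher. In uc.418 the - strand changed by -4.01 and the + strand by -1.12, where each probe was detected on 2 of the 3 TAC arrays. The + strand of uc.418 was not called under normexp background correction (-0.24, limma adjusted p = 0.08).

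Opposite calls in TAC were made for uc.183, uc.186, uc.235, uc.258, uc.324, uc.340, uc.407, uc.427 and the hypertrophy region. Those in CnA were made for uc.183, uc.235, uc.258, uc.308, uc.324, uc.358, uc.407 and uc.414. The probe uc.258+ was at -0.15, -0.29 and -0.59 in WT, 0.38, 0.46 and 0.46 in TAC and 0.23, 0.70 and 1.18 in CnA, with rises of 0.78 (limma adjusted p = 0.017) and 1.05 (limma adjusted p = 0.0046). The probe uc.258- was at -0.29, -0.18 and -0.07 in WT, -1.10, -1.04 and -0.82 in TAC and -1.04, -1.34 and -1.23 in CnA, with falls of -0.81 (limma adjusted p = 0.00067) and -1.03 (limma adjusted p = 0.00021). Neither model overlapped WT on either strand, but the rise of uc.258+ was not called with the row as a block in either model, nor in TAC without WT replicate 3 (limma adjusted p = 0.056).

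In uc.324 the + strand rose by 1.03 in TAC and 0.92 in CnA, and the - strand fell by 1.3 and 0.58 on the log2 scale. In uc.407 the - strand rose by 1.1 and 1.13 and the + strand changed by -1.47 and -1.66, where uc.407- was detected on 1 of the 3 WT arrays. In uc.183 the - strand changed by -2.56 and -2.36 and the + strand by 0.51 in each, and uc.183- was detected on 1 of the 3 TAC arrays. In uc.235 the + strand rose by 1.91 and 2.09, and uc.235- was detected in WT only. In neither model did uc.235+ meet the rule of full detection without overlap that chose the leading rises. With the row as a block uc.235+ was not called in TAC or CnA (1.96 and 2.25, limma adjusted p = 0.14 and 0.23). Nor was it called in TAC with array weights (1.27, limma adjusted p = 0.053). The probe uc.235+ lost its call in TAC without TAC replicate 1 or 3 (limma adjusted p = 0.055 and 0.071), and under normexp background correction uc.235- stood at 0.04 in TAC. Relative to the general shift, opposite calls numbered 10 in TAC and 8 in CnA. There were 5 in TAC among probes detected on all 9 arrays, and 3 in TAC and 0 in CnA with the row as a block.

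**Figure D5:**
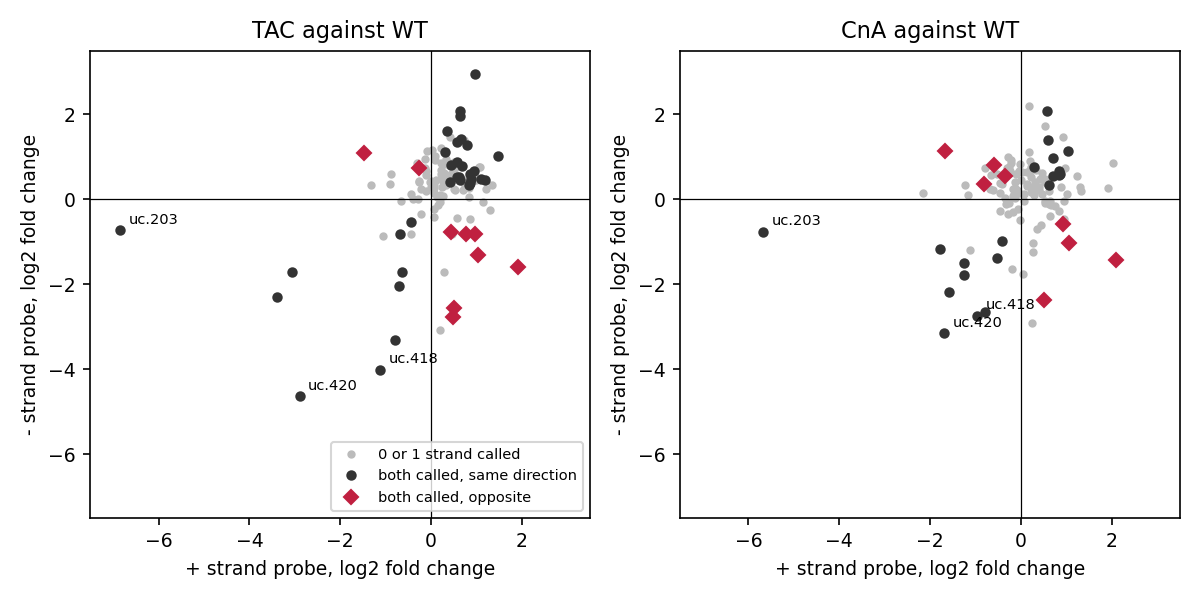
Log2 fold change of the - strand probe (y axis) against that of the + strand probe (x axis) for the 124 regions with both strands tested, in TAC against WT (left) and CnA against WT (right). Dark points mark regions with both strands called in the same direction and red diamonds the 9 and 8 regions with opposite calls. For uc.203 the + strand lies at -6.85 and the - strand at -0.73 in TAC.

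Regions with published work were counted as lists. Of the 10 probes for regions of 5 regions described in heart or heart cells, 8 were tested. In TAC 3 were higher and 1 lower, and in CnA 1 was higher and 2 lower, against 39.6% higher and 20.5% lower in TAC and 36.2% and 20.5% in CnA over the array. The list's medians were 0.46 and 0.08 log2 units, beside 0.32 and 0.22 for all tested probes. In CnA against TAC 0 of the 8 were called by limma. One + strand probe of this list was at -2.67, -2.81 and -2.84 in WT, -2.13, -2.30 and -2.13 in TAC and -2.12, -1.96 and -2.01 in CnA. It rose by 0.58 in TAC (SE 0.1, limma adjusted p = 0.0014) and 0.74 in CnA (SE 0.1, limma adjusted p = 0.00044), with no overlap with WT. These rises are of the scaled signal, whose percentile was lower in both models, and a change without scaling was not tested.

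The probe uc.48- rose by 0.58 in TAC (limma adjusted p = 0.016), and was not called without TAC replicate 3 (0.47, limma adjusted p = 0.058) or with the row as a block (limma adjusted p = 0.18). Its counterpart uc.48+ was at -0.60, -0.72 and -0.61 in WT and -0.82, -0.76 and -0.70 in TAC, a difference of -0.11 (limma adjusted p = 0.41). The probe uc.4+ had a log2 fold change of -0.49 in CnA (limma adjusted p = 0.015). It was not called there without CnA replicate 1 (-0.42, limma adjusted p = 0.056) or with the row as a block (-0.51). In TAC it differed by -0.33 (limma adjusted p = 0.067). Under median scaling uc.4+ was called lower in TAC (-0.43, limma adjusted p = 0.039). In the remaining listed region the - strand differed by 0.59 in both models (limma adjusted p = 0.065 and 0.067). It was called higher in both under normexp background correction and without TAC replicate 1 (0.89 and 0.59, limma adjusted p = 0.0027 and 0.0092). In CnA it was also called when only the groups compared were fitted (0.59, limma adjusted p = 0.017). The + strand of that region differed by 0.45 and -0.1 (limma adjusted p = 0.42 and 0.87).

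Of the 26 probes for regions known mainly from cancer and other tissues, 14 were tested. In TAC 3 were higher and in CnA 4, and 0 were lower in either model by limma, against 39.6% and 36.2% higher and 20.5% lower in each over the array. The medians were 0.24 and 0.03. The smallest adjusted p belonged to the + strand of a region described as rising in oxygen shortage in cancer cells. It was at -1.44, -1.55 and -1.50 in WT, -0.72, -0.68 and -0.70 in TAC and -0.62, -0.67 and -0.65 in CnA. It rose by 0.8 in TAC (SE 0.08, limma adjusted p = 8.6e-05) and 0.85 in CnA (SE 0.08, limma adjusted p = 7.3e-05), and its 6 values in the models lay apart from WT. Here too the rises are of the scaled signal, and a change without scaling was not tested. The - strand of a region studied in liver cancer rose by 0.95 and 0.99 (limma adjusted p = 0.011 and 0.01), while its + strand differed by 0.33 and -0.28 without a call. The other calls were 1 in TAC and 2 in CnA. Both probes of uc.8 and uc.63 were detected on no array.

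Over all 3 groups together, the F test called 263 of the 483 tested ultraconserved probes, or 54.5%, against 64.3% of all tested probes. At the other end, a - strand probe of the cancer list, uc.342- and uc.345+ had the smallest F statistics. The first was at -3.32, -3.43 and -2.94 in WT, -3.25, -3.11 and -3.35 in TAC and -2.90, -2.98 and -3.71 in CnA, with overlap of all groups. All 3 probes were dim, and under normexp background correction each was called higher in TAC than in WT, by 0.31, 0.37 and 0.26 (limma adjusted p = 0.0093, 0.0092 and 0.047). These values lay near the median of 0.35 over all tested probes under that correction.

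Restricted to probes brighter than every negative control probe on all arrays of at least 1 group, the array kept 23917 probes. In TAC against WT 128 ultraconserved probes among them were called, or 74%, against 74.5% of all such probes, with 92 higher and 36 lower. In CnA against WT 117 were called, or 67.6%, against 71.2%, and in CnA against TAC 39, or 22.5%, against 29.8%. This limit was set after the data had been seen.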

How the data were processed

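Cardiac RNA was depleted of ribosomal RNA and labelled by random priming, per the labels' protocols. Per the file headers, Agilent Feature Extraction 11.0 read 1 channel, and the deposited processed signal is a background-subtracted intensity. The authors' deposited log2 tables list 460 of the 962 probes, and the number detected on at least 6 arrays was also 460. How the tables were made is not given in the sources used here. Their values matched the quantile-normalized log2 processed signal, with 99.66% to 100% of 42321 probes per array within 0.05.

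Control spots and 130 probes flagged as outliers were left out. Signals were taken as log2 minus the array's 75th percentile, and 44224 of 59709 probes were fitted with limma 3.58.1 in R 4.3.3 (lmFit, eBayes, 9 arrays, 1 coefficient per group), with Benjamini-Hochberg adjustment over all of them. The fit was tested on simulated data. Replicates sharing a number did not deviate together (r from -0.22 to -0.02).

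Per comparison, the text names the 8 top rises and 8 top falls that were called, detected on all 6 arrays and free of overlap, then the strand pairs that differ most, the highest bounds, the 3 smallest F and the heart list: uc.4, uc.48, uc.167 (the remaining region), uc.245 (the rising + strand probe) and uc.323 (the hypertrophy region). The cancer list names uc.475 (oxygen shortage), uc.338 (liver cancer) and uc.346 (smallest F). Other probes were named after their values were seen. Members and lists were chosen with earlier results of these data known. Alternatives covered scaling, background, filters, blocks, weights, thresholds and single arrays; 3 arrays per group limit the precision.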

Additional observations from a re-analysis of the deposited data

Results flagged for a closer look

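Signal was present in probes that no comparison uses. Among 20 negative controls, 5 passed as well above background on all 9 arrays and 11 on none. The mean log2 signal of the brightest, MM9NEGATIVE020, without scaling, was 7.69 for WT, 7.07 for TAC and 6.89 for CnA. MM9NEGATIVE009 fell as well, from 7.18 to 7.65 in WT to 6.71 to 6.87 in TAC and 6.08 to 6.46 in CnA. The rest of the 5 changed less. In WT, TAC and CnA, MM9NEGATIVE018 was at 5.68 to 5.88, 5.79 to 5.92 and 5.78 to 5.88. MM9NEGATIVE013 was at 6.02 to 6.03, 5.77 to 5.91 and 5.84 to 5.93. MM9NEGATIVE019 was at 5.27 to 5.46, 5.29 to 5.42 and 5.03 to 5.38.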

How the results depend on the processing

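Of 2161 recomputed values for 107 named fold changes, 2059 kept direction and call, 83 lost their call, 16 gained one and 3 turned. The 3 were TAC against WT under normexp background correction, at 0.04 for uc.235-, 0.37 for uc.342- and 0.31 for the - strand probe of the cancer list. The median over all tested probes in that setting was 0.35, and the cause was not tested. Normexp gave 322 rises in TAC and 247 in CnA. Without a filter on dim probes 14 fell in CnA against TAC, with detection on all 9 arrays TAC had 5 opposite strand pairs, and the deposited tables gave 5 in CnA. The replicate numbers were not shown to pair the samples; with the replicate block CnA against TAC had 27 calls, 13 lower. With the slide row as a block TAC had 157 calls, 109 higher, and 3 opposite pairs; CnA had 58, with 23 higher, 35 lower and 0 opposite pairs; CnA against TAC had 14, with 8 higher and 6 lower; and the F test had 117. Array weights gave 14 opposite pairs in CnA, and in CnA against TAC 107 calls, 40 higher and 67 lower, with 1 opposite pair. At 2-fold TAC had 81 (45 higher, 36 lower), CnA 82 (43 and 39), each with 3 opposite pairs, CnA against TAC 12 (10 and 2) and the F test 99. Fitting only the groups compared gave 5 opposite pairs in CnA, and 69 calls, 31 higher, with 2 opposite pairs in CnA against TAC. Limited to probes brighter than every negative control, chosen after seeing the data, TAC had 128 (92 and 36) with 2 opposite pairs, CnA 117 (73 and 44) with 4, and the F test 135. Leaving out 1 array gave 216 to 274 calls in TAC (161 to 216 higher, 55 to 61 lower, 7 to 10 opposite pairs), 198 to 255 in CnA (134 to 183, 63 to 72, 6 to 11), 20 to 71 in CnA against TAC (12 to 30, 8 to 41, 0 to 1) and 220 to 275 for the F test. Detection by the weaker criterion of positive and significant signal counted 634 probes on all TAC arrays.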
